A study of Mus musculus with 9 samples.

Results

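The transcripts of 42 proteasome subunits and proteasome-bound factors were followed in mouse macrophages exposed to medium from control or pulmonary hypertensive fibroblasts. The members were the rows of the deposited count table whose gene symbol is Psma, Psmb, Psmc, Psmd or Psme with a number, 1 row a symbol, at a CPM (counts scaled to the counted reads of the library) exceeding 1 in 3 libraries or more. Of 47 matching rows, 4 are pseudogenes whose symbol is shortened at a hyphen (Psmb5-ps, Psmb6-ps, Psmb6-ps2 and Psmb7-ps2, with 0 to 7 reads over all libraries). The other 43 each have a symbol of their own, and 42 of them passed, out of 11950 genes that passed among 53465 in the table. Psmb11, the thymus-specific catalytic subunit, did not pass, with 2 reads over all libraries. Psma8, a testis form of an alpha subunit, passed just inside the limit, above a CPM of 1 in 6 libraries and between 0.81 and 1.61 in all 9, with 751 reads in total.

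The study asked how bone marrow-derived macrophages (BMDMs) respond to signals of fibroblasts from the adventitia, the outer layer of the pulmonary artery. BMDMs of male wild-type C57BL/6 mice (C57bl6/J in the methods of the study), grown with the macrophage growth factor CSF1 at 50 ng/ml, were left without conditioned medium (UNX), treated with medium of fibroblasts from control calves (CO-CM) or with medium of fibroblasts from calves with hypoxia-induced pulmonary hypertension (PH-CM). Each group had 3 libraries, and the medium of each kind was a pool of several fibroblast populations, so replicates repeat the mouse culture and not the calf. As treatment time the labels give both 16 h and 24 h, and the methods of the study give a time between these. All groups share the mouse strain, sex and growth with CSF1. The mouse age is not given in the sources used here, and calf medium acted on mouse cells. Conditioned media were supplemented with serum, and the methods of the study do not say whether CSF1 was present during treatment. A difference in base medium or CSF1 thus cannot be told apart from the effect of either conditioned medium against UNX. Libraries held 62017933 to 84314201 counted reads. The macrophage identity was checked on 10 markers: all 10 passed the filter, with a summed level of 12280 to 13050 CPM in UNX, 19620 to 20570 in CO-CM and 22150 to 24000 in PH-CM. Of 8 fibroblast markers 7 passed, summing to 199.8 to 252 CPM in UNX, 274 to 324 in CO-CM and 254 to 338 in PH-CM. None of 7 lymphocyte and 5 dendritic cell markers passed, and 1 of 7 neutrophil markers did. Ncr1 and Ly6g were at 0 reads in every library. In these bulk samples, fewer cells of a type and less RNA per cell cannot be told apart, and the part of the fibroblast transcripts in the results was not tested.

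The proteasome degrades proteins tagged with ubiquitin. Its barrel, the 20S core, is built from rings of alpha subunits, which form the gate, and rings of beta subunits, of which Psmb5, Psmb6 and Psmb7 cut with chymotrypsin-like, caspase-like and trypsin-like specificity. The 19S particle caps the barrel: its base of ATPases (the Psmc genes) unfolds substrates, and its lid holds Psmd14, which removes the ubiquitin chain. In immune cells and under interferon gamma, Psmb8, Psmb9 and Psmb10 can replace Psmb5, Psmb6 and Psmb7, which yields the immunoproteasome, and Psme1 with Psme2 forms the activator PA28. Both favour peptides that load onto MHC class I molecules.

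Interferons act on genes through promoter elements named ISRE and GAS, and the factors NRF1 and NRF2 bind antioxidant response elements (AREs) at genes of the constitutive proteasome. RefSeq windows from 250 bases before to 50 after the transcription start (GRCm38.p6) were found for 35 of the 42 members and searched on both strands for 4 motifs. The ISRE core, which is GAAA followed after any 2 bases by another GAAA, was present in the windows of 4 members (11.4%), against 3.44% of all 32851 windows. These were Psmb3, Psmd4, Psmd9 and Psme1, of which only Psme1 is an immunoproteasome member. The GAS motif, TTCNNNGAA, was in the windows of 2 members, Psmb8 and Psmd2 (5.71%, against 8.30%). The ARE core, TGACNNNGC, was in those of 6 (17.1%, against 12.4%) and the CCAAT box in those of 13 (37.1%, against 37.4%). No 2 different motifs overlapped in the windows shown. A match describes letters in a window and is not a bound site. The following 5 windows are chosen examples, each read in the direction of the gene, with the motif in capitals. Of these genes, Psmb9, Psme1 and Psmb5 passed the thresholds given below in no main comparison.

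Psmb8 (chr17:34197945-34198244, plus strand) holds a GAS motif, which reads alike on both strands, 97 bases before the RefSeq start. Psmb9 (chr17:34187281-34187580, minus strand) holds a CCAAT box on the opposite strand 8 bases before the start, and shares 275 of its bases with the window of the divergent gene Tap1, a peptide transporter. Psme1 (chr14:55578244-55578543, plus strand) holds an ISRE core on the opposite strand, beginning 9 bases after the start. Psmb5 (chr14:54617946-54618245, minus strand), the constitutive partner of Psmb8, holds an ARE core 47 bases before the start. Psmd14 (chr2:61711444-61711743, plus strand), the member with the most negative fold change under both media, holds CCAAT boxes on both strands, of which a pair overlaps in the run just after the start. The windows of Psmb10, Psme2 and Psmd8 held none of the 4 motifs.
Psmb8: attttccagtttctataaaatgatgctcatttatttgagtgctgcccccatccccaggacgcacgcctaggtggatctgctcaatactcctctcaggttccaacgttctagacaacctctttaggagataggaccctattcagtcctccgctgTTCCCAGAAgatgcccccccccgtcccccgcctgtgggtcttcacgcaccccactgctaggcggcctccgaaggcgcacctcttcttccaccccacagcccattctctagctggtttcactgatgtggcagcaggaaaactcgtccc
Psmb9: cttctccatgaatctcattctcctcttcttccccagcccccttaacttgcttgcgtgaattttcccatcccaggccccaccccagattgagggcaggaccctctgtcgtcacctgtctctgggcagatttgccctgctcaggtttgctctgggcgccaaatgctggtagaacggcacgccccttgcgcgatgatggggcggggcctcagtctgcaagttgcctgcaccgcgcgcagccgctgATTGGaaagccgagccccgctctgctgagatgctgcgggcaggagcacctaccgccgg
Psme1: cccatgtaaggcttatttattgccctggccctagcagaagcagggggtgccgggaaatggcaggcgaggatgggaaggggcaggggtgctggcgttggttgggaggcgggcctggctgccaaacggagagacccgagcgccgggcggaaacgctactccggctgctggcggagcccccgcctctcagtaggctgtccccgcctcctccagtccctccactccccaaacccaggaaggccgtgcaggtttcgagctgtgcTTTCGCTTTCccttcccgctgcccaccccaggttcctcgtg
Psmb5: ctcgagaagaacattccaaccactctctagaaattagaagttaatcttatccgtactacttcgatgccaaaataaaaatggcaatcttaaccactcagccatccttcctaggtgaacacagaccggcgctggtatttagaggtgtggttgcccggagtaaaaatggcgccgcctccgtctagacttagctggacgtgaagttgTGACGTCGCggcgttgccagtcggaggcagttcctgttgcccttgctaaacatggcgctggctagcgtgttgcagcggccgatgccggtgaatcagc
Psmd14: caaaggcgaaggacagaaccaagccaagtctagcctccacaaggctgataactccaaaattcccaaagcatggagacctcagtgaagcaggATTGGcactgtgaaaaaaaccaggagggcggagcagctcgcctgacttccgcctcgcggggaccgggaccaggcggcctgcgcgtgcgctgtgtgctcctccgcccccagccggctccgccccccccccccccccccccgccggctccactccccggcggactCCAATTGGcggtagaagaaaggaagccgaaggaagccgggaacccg

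Most constitutive subunits were called lower in BMDMs under either medium than in UNX, all by less than 2-fold. A gene was called at an FDR (the Benjamini-Hochberg adjusted p of edgeR's quasi-likelihood test over the 11950 genes) of at most 0.05 with a fold change of at least 1.2, and "lower" and "higher" of a call refer to that. Under PH-CM 30 of the 42 members were called lower than in UNX and 0 higher, where 31.7% of all genes tested were called lower and 31.3% higher. Under CO-CM 24 were called lower and 1 higher, against 28.9% and 28.0% of all genes. The members' median log2 fold change was -0.41 under PH-CM and -0.36 under CO-CM, while that of all genes was 0.0072 and 0.00024. Both comparisons use the same UNX libraries, so the values under the media are not independent of each other.

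The 3 PH-CM libraries lay below the 3 UNX libraries for 37 members and above them for 3, where 38.8% of all genes lay below and 38.9% above. Under CO-CM the libraries lay below for 33 members and above for 2 (36.7% and 35.4% of all genes). Summed over the 42 members, the level was 4900 to 5167 CPM in UNX, 4195 to 4550 in CO-CM and 3949 to 4100 in PH-CM, ranges that do not overlap. The 15 constitutive core subunits summed to 1552 to 1640 CPM in UNX, 1293 to 1426 in CO-CM and 1269 to 1319 in PH-CM. The 17 subunits of the 19S particle among the members summed to 2695 to 2854, 2315 to 2540 and 2145 to 2256 CPM. Psmd8 weighs on this sum and on that of the 42 members, at 491 to 564 CPM in CO-CM and 322 to 342 in PH-CM. For PH-CM against CO-CM, 10 of the 17 log2 fold changes were positive and 7 negative, with a median of 0.014. The gap of these sums between the media thus does not describe most 19S subunits. The 5 immunoproteasome members summed to 275.8 to 313.5 CPM in UNX, 239.3 to 296.6 in CO-CM and 216.9 to 243.6 in PH-CM, so for these only PH-CM lay apart from UNX.

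**Figure D1:**
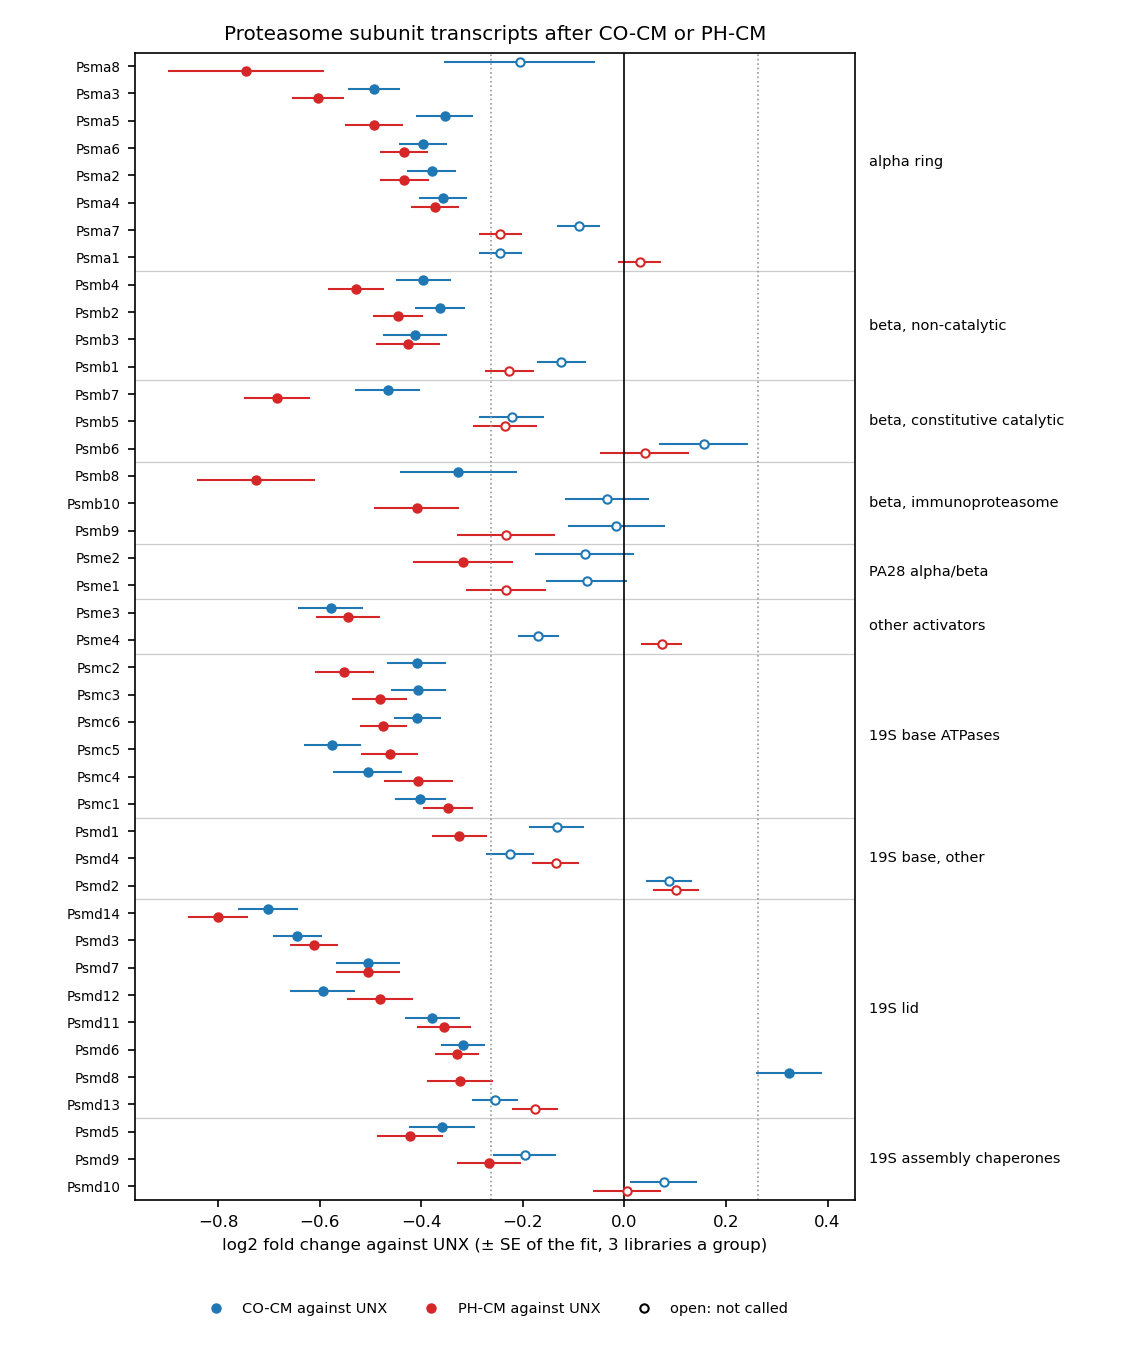
Log2 fold change against UNX (horizontal axis) of the 42 members, by class, under CO-CM (blue) and PH-CM (red), with the standard error of the fit, 3 libraries a group. Filled points passed both thresholds, open points did not, and dotted lines mark a fold change of 1.2. Most points lie left of 0, the immunoproteasome subunits other than Psmb8 lie near 0 under CO-CM, and Psmd8 lies on opposite sides of 0 under the 2 media.

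Among the alpha subunits, which frame the gate of the barrel, 6 of 8 were called lower under PH-CM and 5 under CO-CM. The shares of all genes called lower were 31.7% and 28.9%. Psma3 fell by 0.60 on the log2 scale under PH-CM and by 0.49 under CO-CM, and Psma2, Psma4, Psma5 and Psma6 were also called lower under both. Psma8 had the largest value of the class but is scarcely present: it stood at 1.54, 1.43 and 1.37 CPM in UNX, 1.27, 1.14 and 1.35 in CO-CM and 0.863, 0.901 and 0.823 in PH-CM. The PH-CM libraries were lowest, below both other groups without overlap. Its log2 fold change was -0.75 ± 0.15 (SE) for PH-CM against UNX (FDR 0.00124) and -0.54 ± 0.16 for PH-CM against CO-CM (FDR 0.0205). The second value was no longer called without CO-CM 3, PH-CM 1 or PH-CM 3 (FDR 0.0697, 0.0551 and 0.0644), or with no filter on low counts (FDR 0.0981).

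Psma1 had a pattern of its own. It stood at 128, 129.6 and 130.4 CPM in UNX, 104, 110.3 and 114 in CO-CM and 132, 133 and 131 in PH-CM. The CO-CM libraries were the low ones, and the PH-CM libraries lay marginally above UNX. It was the 1 member called higher in PH-CM than in CO-CM, at 0.27 ± 0.04 (FDR 0.000591), with -0.24 ± 0.04 for CO-CM against UNX (FDR 0.000431), just under the fold threshold and called in several alternatives (-0.31 with library size alone), and 0.03 ± 0.04 for PH-CM against UNX (FDR 0.535). With upper-quartile factors or without CO-CM 1 the difference between the media was 0.24, under the fold threshold.

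The beta subunits without a cutting site, Psmb1 to Psmb4, close the ring around the catalytic ones. Under each medium 3 of the 4 were called lower, beside 31.7% of all genes under PH-CM and 28.9% under CO-CM. Psmb4 stood at 139, 141 and 148 CPM in UNX, 103, 105 and 118 in CO-CM and 99.5, 97.0 and 101 in PH-CM. UNX was highest in all 3 libraries, and PH-CM lay below CO-CM without overlap. The log2 fold change was -0.53 ± 0.05 under PH-CM (FDR 8.42e-06) and -0.40 ± 0.05 under CO-CM (FDR 8.95e-05), and the media differed by -0.13 ± 0.05, which did not pass (FDR 0.0814). Psmb1 was the member of this class that was called under neither medium.

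The constitutive catalytic subunits had unlike values. Psmb7, the trypsin-like subunit (GRCm38, as for all genes here, chr2:38588036-38644087, minus strand), stood at 64.1, 60.4 and 67.0 CPM in UNX, 43.7, 45.5 and 49.4 in CO-CM and 41.8, 37.0 and 40.3 in PH-CM. The 3 groups did not overlap, in the order UNX, CO-CM, PH-CM. It was called lower under PH-CM at -0.68 ± 0.06 (FDR 4.3e-06) and under CO-CM at -0.47 ± 0.06 (FDR 9.01e-05), while the media differed by -0.22 ± 0.07 (FDR 0.0231), under the fold threshold. Its exons share 405 bases with Nek6 on the opposite strand, and the counting options name no strand. Reads there could thus not be assigned by strand, and what they added to or took from the count was not examined.

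Psmb5, the chymotrypsin-like subunit (chr14:54614119-54618022, minus strand), stood at 72.0, 65.0 and 71.9 CPM in UNX, 59.9, 55.4 and 63.9 in CO-CM and 61.7, 56.9 and 58.9 in PH-CM. Both media lay below UNX without overlap, and they overlapped each other. The log2 fold changes of -0.24 ± 0.06 (FDR 0.0065) and -0.22 ± 0.06 (FDR 0.00988) were under the fold threshold of 1.2, so neither was called. With library size alone both were -0.29 and were called, as each was in some fits with a library left out. Psmb6, the caspase-like subunit (chr11:70525367-70527858, plus strand), stood at 223, 262 and 267 CPM in UNX, 252, 279.6 and 306 in CO-CM and 242, 255 and 276 in PH-CM. Its groups overlapped, and no comparison passed: 0.04 ± 0.09 for PH-CM against UNX (FDR 0.69), 0.16 ± 0.09 for CO-CM against UNX (FDR 0.136) and -0.12 ± 0.09 between the media (FDR 0.329).

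Among the immunoproteasome members, 3 of 5 were called lower under PH-CM (Psmb8, Psmb10 and Psme2), 1 of 5 under CO-CM (Psmb8) and 2 of 5 in PH-CM against CO-CM (Psmb8 and Psmb10). All 5 had a negative value in all 3 comparisons, with medians of -0.32, -0.07 and -0.24. Of all genes tested, 31.7%, 28.9% and 15.0% were called lower in these comparisons, so the 1 call of 5 under CO-CM is no more than that share. The other 37 members had medians of -0.42, -0.36 and -0.05, with 27, 23 and 2 called lower. The difference between these sets was not tested.

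Psmb8, which takes the place of Psmb5, lies within the MHC class II region beside Psmb9 and the peptide transporters Tap1 and Tap2 (chr17:34197721-34201454, plus strand). It stood at 42.5, 50.4 and 52.2 CPM in UNX, 33.5, 38.5 and 43.8 in CO-CM and 27.5, 27.0 and 33.3 in PH-CM. Every PH-CM library lay below every CO-CM and UNX library, while CO-CM and UNX overlapped, and within each replicate number CO-CM lay below UNX. The log2 fold change was -0.73 ± 0.12 for PH-CM against UNX (FDR 0.000207), or -39.5% in level, -0.33 ± 0.12 for CO-CM against UNX (FDR 0.0259) and -0.40 ± 0.12 between the media (FDR 0.0207). The call against UNX under PH-CM held under every alternative with the fold threshold of 1.2. Under CO-CM it was lost without UNX 2, UNX 3, CO-CM 1 or CO-CM 2 (FDR 0.0644, 0.0861, 0.0909 and 0.0611) and with upper-quartile factors (FDR 0.0717). Between the media it was lost without CO-CM 3, PH-CM 1 or PH-CM 2 (FDR 0.0859, 0.0775 and 0.0786), and with the numbers as blocks it was 0.00016.

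Psmb10, the counterpart of Psmb7 (chr8:105935735-105938444, minus strand), stood at 46.7, 46.3 and 52.5 CPM in UNX, 41.7, 51.2 and 49.2 in CO-CM and 34.1, 37.3 and 38.2 in PH-CM. The PH-CM libraries lay below all others, and CO-CM overlapped UNX. It was called lower in PH-CM than in UNX, at -0.41 ± 0.08 (FDR 0.00114), and than in CO-CM, at -0.38 ± 0.08 (FDR 0.00539). CO-CM against UNX gave -0.03 ± 0.08 (FDR 0.732), a value that changed sign with upper-quartile factors and without UNX 3 or CO-CM 1.

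Psmb9, the counterpart of Psmb6 (chr17:34181987-34187764, minus strand), was the least abundant of the 5 and stood at 21.2, 23.9 and 23.4 CPM in UNX, 20.1, 25.9 and 21.9 in CO-CM and 17.9, 20.4 and 20.1 in PH-CM. The PH-CM libraries lay below UNX, the lowest of which was UNX 1, and the CO-CM libraries spanned both groups. No comparison was called: PH-CM against UNX gave -0.23 ± 0.10 at an FDR of 0.0483, under the fold threshold (called at -0.29 with library size alone or without UNX 1, at -0.28 with no filter and at -0.27 with filterByExpr), CO-CM against UNX gave -0.02 ± 0.10 (FDR 0.891) and the media differed by -0.22 ± 0.10 (FDR 0.104), called at -0.30 without CO-CM 1. The exons of Psmb9 and Tap1 share 212 bases on opposite strands. Tap1, which shares that promoter region, stood at 45.7, 48.8 and 45.3 CPM in UNX, 42.0, 47.2 and 41.6 in CO-CM and 33.8, 37.2 and 37.7 in PH-CM, and was called lower in PH-CM than in UNX (-0.36 ± 0.07, FDR 0.000472).

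Psme1 and Psme2, the subunits of PA28, are neighbours on chromosome 14 (chr14:55578123-55581529, plus strand, and chr14:55587441-55591113, minus strand). Psme1 stood at 89.8, 96.8 and 96.1 CPM in UNX, 77.3, 96.4 and 94.8 in CO-CM and 76.5, 79.6 and 84.3 in PH-CM. Psme2 stood at 75.6, 83.3 and 89.2 CPM in UNX, 66.8, 81.3 and 86.9 in CO-CM and 61.0, 70.4 and 67.7 in PH-CM. For both, PH-CM lay below UNX without overlap and CO-CM spanned both groups, with CO-CM 1 far below the other two CO-CM libraries. Psme2 was called lower under PH-CM at -0.32 ± 0.10 (FDR 0.0128), a call lost without UNX 3 (FDR 0.0518). Psme1 gave -0.23 ± 0.08 (FDR 0.0209), under the fold threshold, and was called at -0.27 without UNX 1 or PH-CM 3 or with filterByExpr, at -0.28 with no filter and at -0.29 with library size alone. Under each of these last 3 settings all 5 immunoproteasome members were thus called lower under PH-CM, in place of 3. Under CO-CM the values were -0.07 ± 0.08 for Psme1 (FDR 0.421) and -0.08 ± 0.10 for Psme2 (FDR 0.494), and both changed sign without CO-CM 1. Between the media they were -0.16 ± 0.08 (FDR 0.143) and -0.24 ± 0.10 (FDR 0.0787), the latter called at -0.34 without CO-CM 1.

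The immunoproteasome members had larger standard errors than most. Their median standard error for PH-CM against UNX was 0.10 on the log2 scale, against 0.05 for the other members and 0.08 for all genes. Replicate 1 was the lowest library of its group in 13 of 15 cases (5 members in 3 groups), whereas for the other members it was lowest in 24 of 111. These cases are not independent, and the share over all genes was not counted. Over all genes, replicate 1 was also the library furthest from the others in each group. The chi-square per gene of its pairs was 57.09 and 40.38 in UNX, 44.9 and 48 in CO-CM and 29.52 and 21.58 in PH-CM. Between replicates 2 and 3 it was 13.39, 17.52 and 10.61. For the other 37 members it was replicate 2 that was most often lowest, for 27 in UNX, for 24 in CO-CM and for 25 in PH-CM. A fit with the numbers as blocks changed no call of a member.

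**Figure D2:**
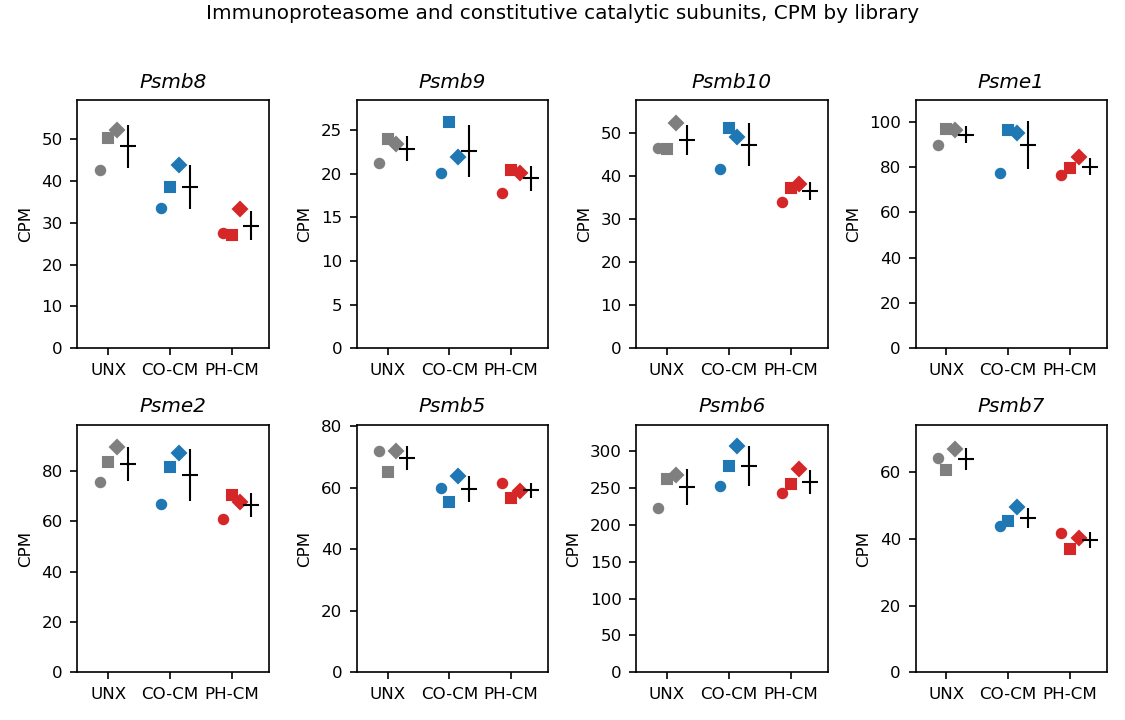
CPM (vertical axis, from 0, a scale for each gene) in every library of the 5 immunoproteasome members and the 3 constitutive catalytic subunits. Circles, squares and diamonds are replicates 1, 2 and 3, and black marks are the mean ± SD of 3 libraries. PH-CM is lowest without overlap for Psmb8, Psmb10 and Psmb7, and replicate 1 is low in all groups for Psme1 and Psme2.

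Levels of different genes can be compared only per length, here as CPM per kilobase of the exon length that the deposited table gives (mean ± SD, n = 3), and the order depends on that length. In UNX, Psmd8 (136 ± 8.78) and Psmb6 (134 ± 13.1) did not differ beyond their spread. With the length of the principal transcript, known for 39 members, Psmb6 was highest of those 39 at 314 ± 30.7. Psmb1 stood at 119 ± 4.77 with the length in the table, at 70.1 ± 2.81 with its principal transcript and at 26.8 with all GENCODE exons, so its place in the order is not fixed. The lowest was Psma8, at 0.856 ± 0.0509 with the length in the table and 0.857 with the principal transcript. Among the immunoproteasome members, Psme2 (46.9 ± 3.89) and Psme1 (42.7 ± 1.76) did not differ beyond their spread, and stood at 86.0 ± 7.13 and 84.7 ± 3.50 with the principal transcript. Psmb10 followed at 28.4 ± 2.02 (37.0 with the principal transcript), then Psmb8 at 17.7 ± 1.88 (29.7) and Psmb9 at 6.25 ± 0.392 (16.9), an order that both lengths gave. Of the constitutive partners, Psmb5 stood at 77.5 ± 4.44 with either length. Psmb7 stood at 18.7 ± 0.960, within the spread of Psmb8, but at 55.0 ± 2.83 with the principal transcript, above Psmb8 and Psmb10. Within a gene the length plays no part: Psmd8 was at 171 ± 12.3 in CO-CM and 109 ± 3.41 in PH-CM, and Psmb6 at 149 ± 14.4 and 138 ± 8.99.

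A ratio taken within a library does not depend on how libraries are scaled. Psmb8 over Psmb5, as log2 of counts per kilobase, was -2.37, -1.98 and -2.07 in the UNX libraries, -2.44, -2.13 and -2.15 in CO-CM and -2.77, -2.68 and -2.43 in PH-CM. The PH-CM libraries had the lowest ratios, below UNX without overlap, and CO-CM 1 lay just below PH-CM 3. Within each replicate number PH-CM lay below CO-CM, and CO-CM below UNX. PH-CM and UNX differed by -0.49 (exact two-sided permutation test, p = 0.1, 0.225 adjusted over 9 comparisons), PH-CM and CO-CM by -0.38 (exact p = 0.2, 0.360 adjusted over 9) and CO-CM and UNX by -0.11 (exact p = 0.5, 0.562 adjusted over 9). With 3 libraries against 3 the smallest p that this test can give is 0.1, so no ratio could pass 0.05. Paired by number, each of the 3 differences gave an exact p = 0.25, the smallest that 3 pairs can give. Expressed as a share, Psmb8 made up 16.3% to 20.3% of the pair in UNX, 15.5% to 18.6% in CO-CM and 12.8% to 15.7% in PH-CM.

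Psmb9 over Psmb6 was -4.36, -4.42 and -4.48 in UNX, -4.62, -4.40 and -4.77 in CO-CM and -4.73, -4.61 and -4.75 in PH-CM. The PH-CM ratios lay below UNX without overlap, with CO-CM across both, and within the numbers PH-CM lay below CO-CM for 1 and 2 but not for 3. The difference was -0.28 for PH-CM against UNX (exact p = 0.1, 0.225 adjusted over 9), -0.18 for CO-CM against UNX (exact p = 0.3, 0.450 adjusted over 9) and -0.10 between the media (exact p = 0.7, 0.700 adjusted over 9). Psmb10 over Psmb7 went the other way, at 0.55, 0.62 and 0.65 in UNX, 0.94, 1.18 and 1.00 in CO-CM and 0.71, 1.01 and 0.93 in PH-CM. Both media lay above UNX without overlap, within each number PH-CM lay below CO-CM, and Psmb7 had the more negative log2 fold change of the pair under each. The difference was 0.28 for PH-CM (exact p = 0.1, 0.225 adjusted over 9), 0.43 for CO-CM (exact p = 0.1, 0.225 adjusted over 9) and -0.15 between the media (exact p = 0.4, 0.514 adjusted over 9).

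The differences between groups do not depend on gene length, but the ratios themselves do. Psmb10 made up 60.4% of its pair on average in UNX with the exon length that the deposited table gives, and 40.2% with the length of the principal transcript. For Psmb8 the figures were 18.6% and 27.7%, and for Psmb9 4.47% and 5.12%.

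**Figure D3:**
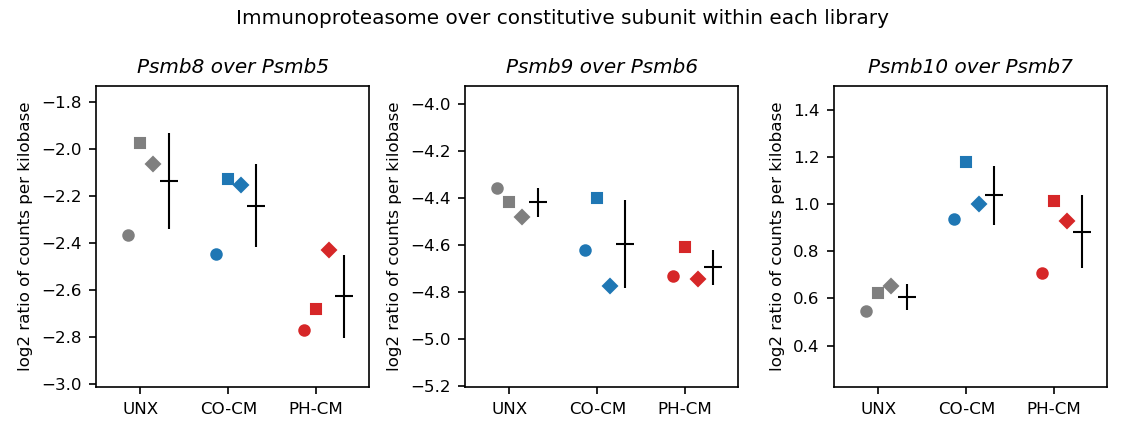
Log2 ratio of counts per kilobase (vertical axis) of each immunoproteasome subunit over the constitutive subunit whose place it takes, in every library, with circles, squares and diamonds for replicates 1, 2 and 3 and black marks for the mean ± SD of 3 libraries. All panels span the same range. Psmb8 over Psmb5 and Psmb9 over Psmb6 are lower in PH-CM than in UNX, and Psmb10 over Psmb7 is higher under both media.

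The 6 ATPases of the 19S base, the motor that unfolds substrates, were all called lower under both media. Of all genes, 31.7% were called lower under PH-CM and 28.9% under CO-CM. The median of the ATPases was -0.47 under PH-CM (-0.55 to -0.35) and -0.41 under CO-CM (-0.58 to -0.40), and none was called between the media. Psmc2 (chr5:21785283-21803787, plus strand) stood at 139, 128 and 136 CPM in UNX, 99.2, 95.3 and 109.9 in CO-CM and 93.1, 88.9 and 93.6 in PH-CM. Its groups did not overlap, with UNX highest and PH-CM lowest. The log2 fold change was -0.55 ± 0.06 under PH-CM (FDR 9.25e-06) and -0.41 ± 0.06 under CO-CM (FDR 0.000105), and the difference of -0.14 ± 0.06 between the media did not pass (FDR 0.0765). Psmc5 was lower by 0.58 under CO-CM, the largest value of the class in that comparison. The exons of Psmc3 share 215 bases with Slc39a13 on the opposite strand.

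Among the members, the base subunits without ATPase activity are the ubiquitin receptor Psmd4 and the scaffolds Psmd1 and Psmd2. They gave 1 lower call of 3 under PH-CM (33.3%), near the 31.7% of all genes. Under CO-CM they gave 0 of 3, where 28.9% of all genes were called lower. Psmd1 stood at 199, 196 and 208 CPM in UNX, 189, 172 and 188 in CO-CM and 168, 152 and 161 in PH-CM. The groups did not overlap, and PH-CM was lowest. It was called lower under PH-CM at -0.33 ± 0.05 (FDR 0.000272), while CO-CM against UNX (-0.13 ± 0.05, FDR 0.0462) and the difference between the media (-0.19 ± 0.05, FDR 0.0176) were under the fold threshold. Psmd1 shares 252 bases of exon with Htr2b on the opposite strand. Psmd2 stood at 386, 376 and 394 CPM in UNX, 404, 396 and 429.6 in CO-CM and 419.7, 409 and 413 in PH-CM. Both media lay above UNX without overlap, but neither 0.10 ± 0.05 (FDR 0.0654) nor 0.09 ± 0.05 (FDR 0.111) passed.

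Of the 8 lid subunits among the members, 7 were called lower under PH-CM and 6 under CO-CM, beside 31.7% and 28.9% of all genes. Psmd14, the deubiquitinase that frees substrates from their chain (chr2:61711694-61800376, plus strand), stood at 98.6, 92.1 and 103 CPM in UNX, 58.8, 57.0 and 64.5 in CO-CM and 56.4, 54.4 and 57.7 in PH-CM. UNX was far above both media, which overlapped. It had the most negative fold change of all members against UNX, -0.80 ± 0.06 under PH-CM (FDR 6.57e-07), a change of -42.6%, and -0.70 ± 0.06 under CO-CM (FDR 2.45e-06), with -0.10 ± 0.06 between the media (FDR 0.223). Psmd3, a scaffold of the lid, fell by 0.61 and 0.64 on the log2 scale under PH-CM and CO-CM, and Psmd12 by 0.48 and 0.59. Psmd13, whose exons share 342 bases with Sirt3 on the opposite strand, was the one of these 8 called in no comparison.

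Psmd8, a lid subunit (chr7:29174188-29180701, minus strand), was the member on which the media differed most. It stood at 386, 429 and 435 CPM in UNX, 491, 510.4 and 564 in CO-CM and 335, 322 and 342 in PH-CM. The groups did not overlap: CO-CM was highest, UNX in between and PH-CM lowest. It was called higher under CO-CM at 0.32 ± 0.06 (FDR 0.00114), lower under PH-CM at -0.32 ± 0.06 (FDR 0.00102) and lower in PH-CM than in CO-CM at -0.65 ± 0.07 (FDR 3.59e-05), a change of -36.2%. The call under CO-CM sat close to the fold threshold: it was 0.26 with library size alone or without UNX 1, and was then not called. The other two calls held under every alternative with the fold threshold of 1.2. The other 7 lid subunits among the members had a negative value under CO-CM.

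**Figure D4:**
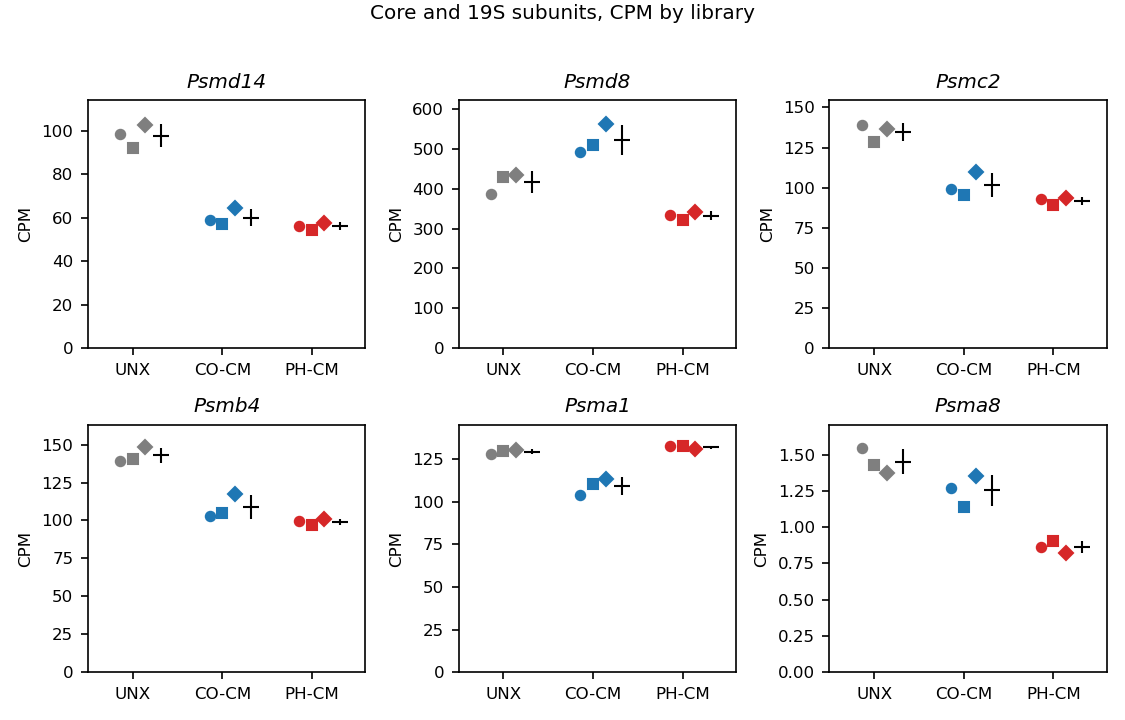
CPM (vertical axis, from 0, a scale for each gene) in every library of 6 core and 19S subunits. Circles, squares and diamonds are replicates 1, 2 and 3, and black marks are the mean ± SD of 3 libraries. Psmd14, Psmc2 and Psmb4 are highest in UNX, Psmd8 is highest in CO-CM and lowest in PH-CM, Psma1 is lowest in CO-CM, and Psma8 is near 1 CPM.

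The assembly chaperones of the 19S base, Psmd5, Psmd9 and Psmd10, do not stay in the finished particle. Psmd5 stood at 54.3, 47.0 and 50.7 CPM in UNX, 41.0, 36.8 and 40.7 in CO-CM and 39.2, 38.0 and 36.3 in PH-CM. Both media lay below UNX and overlapped each other, and it was called lower under PH-CM (-0.42 ± 0.07, FDR 0.000162) and CO-CM (-0.36 ± 0.06, FDR 0.000585). Psmd9 was called lower under PH-CM at -0.27 ± 0.06 (FDR 0.00278), at the edge of the fold threshold, and fell under it without UNX 3, PH-CM 1 or PH-CM 3 and with upper-quartile factors. Psmd10, also known as gankyrin, stood at 21.8, 21.2 and 23.5 CPM in UNX, 21.9, 23.6 and 24.7 in CO-CM and 22.2, 21.3 and 23.3 in PH-CM. Its groups overlapped throughout, with 0.01 ± 0.07 for PH-CM against UNX (FDR 0.949), 0.08 ± 0.07 for CO-CM against UNX (FDR 0.318) and -0.07 ± 0.07 between the media (FDR 0.425).

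Of the activators outside the immunoproteasome set, Psme3 was called lower and Psme4 was not. Psme3, the nuclear PA28 gamma, stood at 151, 131 and 140.4 CPM in UNX, 100.2, 89.6 and 92.9 in CO-CM and 101, 96.0 and 92.4 in PH-CM. Both media lay below UNX, and it was called lower under PH-CM (-0.54 ± 0.06, FDR 2.08e-05) and CO-CM (-0.58 ± 0.06, FDR 1.72e-05), with 0.03 ± 0.06 between them (FDR 0.709). Psme4, which encodes PA200, stood at 112, 109 and 107 CPM in UNX, 99.95, 96.0 and 95.5 in CO-CM and 117, 115 and 112 in PH-CM. The CO-CM libraries were lowest and PH-CM highest, without overlap. None of its differences reached the fold threshold: 0.07 ± 0.04 for PH-CM against UNX (FDR 0.123), -0.17 ± 0.04 for CO-CM against UNX (FDR 0.00349) and 0.24 ± 0.04 between the media (FDR 0.000979), the last being 0.26 and called without CO-CM 1.

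Set directly against CO-CM, PH-CM gave 4 members called lower (Psma8, Psmb8, Psmb10 and Psmd8) and 1 called higher (Psma1), where 15.0% of all genes tested were called lower and 12.2% higher. The members' median was -0.07, against -0.0064 for all genes. The PH-CM libraries lay below CO-CM without overlap for 12 members and above for 2, where 26.3% of all genes lay below and 23.9% above. Leaving out CO-CM 3 or PH-CM 1 reduced the number of lower calls to 2.

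Around the proteasome, 38 tested genes of 39 on 5 lists were followed. Their counts stand beside 31.7% of all genes called lower and 31.3% higher under PH-CM, and 28.9% and 28.0% under CO-CM. Of 7 tested genes on the list for assembly, 5 were called lower under PH-CM and 4 under CO-CM, with none higher. Those under PH-CM were Pomp, Psmg1, Psmg2, Psmg3 and Psmg4, and under CO-CM the same without Pomp. Ecpas and Akirin2 were called under neither medium. The Psmg3 call under PH-CM was lost without UNX 1, UNX 2, PH-CM 1 or PH-CM 2 (FDR 0.0508 to 0.0712). Under CO-CM it was lost without UNX 2 or CO-CM 2 and with upper-quartile factors (FDR 0.0534 to 0.0775). Psmg2, a chaperone that pairs with Psmg1 to build the alpha ring, stood at 19.4, 17.0 and 17.3 CPM in UNX, 10.2, 10.6 and 11.4 in CO-CM and 7.56, 6.96 and 6.92 in PH-CM. The groups did not overlap, and PH-CM was lowest. It was called lower under PH-CM (-1.32 ± 0.08, FDR 1.47e-07), under CO-CM (-0.73 ± 0.08, FDR 1.31e-05) and in PH-CM against CO-CM (-0.59 ± 0.08, FDR 0.000264). Psmg1 fell by 0.92 and 0.72 on the log2 scale under PH-CM and CO-CM. Pomp, the maturation factor of the 20S core, fell by 0.43 under PH-CM, with -0.15 ± 0.05 under CO-CM (FDR 0.0263), under the fold threshold.

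Of 11 proteins that bind the proteasome, 8 were called lower under each medium, and 1, Zfand5, higher under CO-CM. Uchl5, a deubiquitinase of the 19S base, stood at 63.9, 63.4 and 64.2 CPM in UNX, 28.5, 26.7 and 29.2 in CO-CM and 30.3, 25.9 and 27.8 in PH-CM. Its levels were less than those of UNX by 1.19 and 1.18 on the log2 scale (FDR 5.04e-08 and 8.52e-08), and the media overlapped. Usp14, another deubiquitinase of the particle, fell by 0.81 and 0.65, and its exons share 2169 bases with Thoc1 on the opposite strand. Txnl1 fell by 0.80 and 0.60. Zfand5, an activator of the 26S particle, stood at 86.7, 95.3 and 101 CPM in UNX, 122, 131 and 141 in CO-CM and 95.1, 93.5 and 95.8 in PH-CM. The CO-CM libraries alone were raised, by 0.48 against UNX (FDR 7.24e-05), and PH-CM was lower than CO-CM by 0.47 (FDR 0.000274).

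The NRF1 list holds the factor that restores subunit transcription when proteasome activity drops, with its processing enzymes and relatives. Of its 8 genes, 3 were called higher and 1 lower under PH-CM, and 2 higher and 2 lower under CO-CM, shares near those of all genes except for the 12.5% lower under PH-CM. Nfe2l1, which encodes NRF1, stood at 327, 329 and 343 CPM in UNX, 356, 332 and 313 in CO-CM and 345, 324 and 322 in PH-CM, and was called in no comparison. Ddi2 and Ngly1, whose products cleave and deglycosylate NRF1, rose by 0.40 and 0.34 under PH-CM and by 0.44 and 0.33 under CO-CM, where Ngly1 was 0.26 and not called with library size alone. Nfe2l2, which encodes NRF2, stood at 244, 241 and 235 CPM in UNX, 275, 281 and 280.0 in CO-CM and 360.3, 358 and 367 in PH-CM. The groups rose in that order without overlap, and PH-CM was called higher than UNX (0.59 ± 0.04, FDR 2.59e-07) and than CO-CM (0.38 ± 0.04, FDR 4.2e-05).

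Of 6 class I loading genes, 2 were called higher and 2 lower under PH-CM, each 33.3% and near the share of all genes. Under CO-CM 3 were called higher and 1 lower. In PH-CM against CO-CM all 6 values were negative and 3 were called lower (50.0%, against 15.0% of all genes). These were Tap1, Erap1 and B2m, and each of the 3 calls was lost under several alternatives. Erap1, which trims peptides in the endoplasmic reticulum, stood at 91.5, 88.3 and 88.5 CPM in UNX, 75.3, 71.3 and 76.6 in CO-CM and 63.8, 60.4 and 60.4 in PH-CM. Its 3 groups did not overlap, and it was called lower under PH-CM (-0.54 ± 0.05, FDR 1.65e-06) and, close to the fold threshold, under CO-CM (-0.27 ± 0.04, FDR 0.000374), where the call was lost with DESeq2, its size factors and upper-quartile factors and without UNX 1 or CO-CM 2 (-0.26 to -0.20). Its exons share 834 bases with Cast on the opposite strand. B2m, the light chain of class I molecules, rose by 0.34 under PH-CM and by 0.61 under CO-CM, and Tapbp, the peptide-loading chaperone tapasin, by 0.52 and 0.60. Without UNX 1, B2m gave 0.24 under PH-CM and was not called.

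The last list holds genes of interferon regulation. Ifngr1, the ligand-binding chain of the interferon gamma receptor, stood at 107, 114 and 110.2 CPM in UNX, 106, 140.3 and 125 in CO-CM and 179, 219.8 and 208 in PH-CM. PH-CM lay far above the other groups, which overlapped, and was called higher than UNX (0.87 ± 0.10, FDR 1.57e-05) and than CO-CM (0.71 ± 0.10, FDR 0.000301). Irf1, a factor that activates Psmb9 and Tap1, rose under PH-CM by 0.61 and under CO-CM by 0.56, while Irf8 rose by 0.35 and 0.71. Stat2, a factor that acts downstream of type I interferon, fell by 0.42 under CO-CM, gave 0.04 ± 0.05 under PH-CM (FDR 0.502) and was higher in PH-CM than in CO-CM by 0.46 (FDR 3.72e-05).

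**Figure D5:**
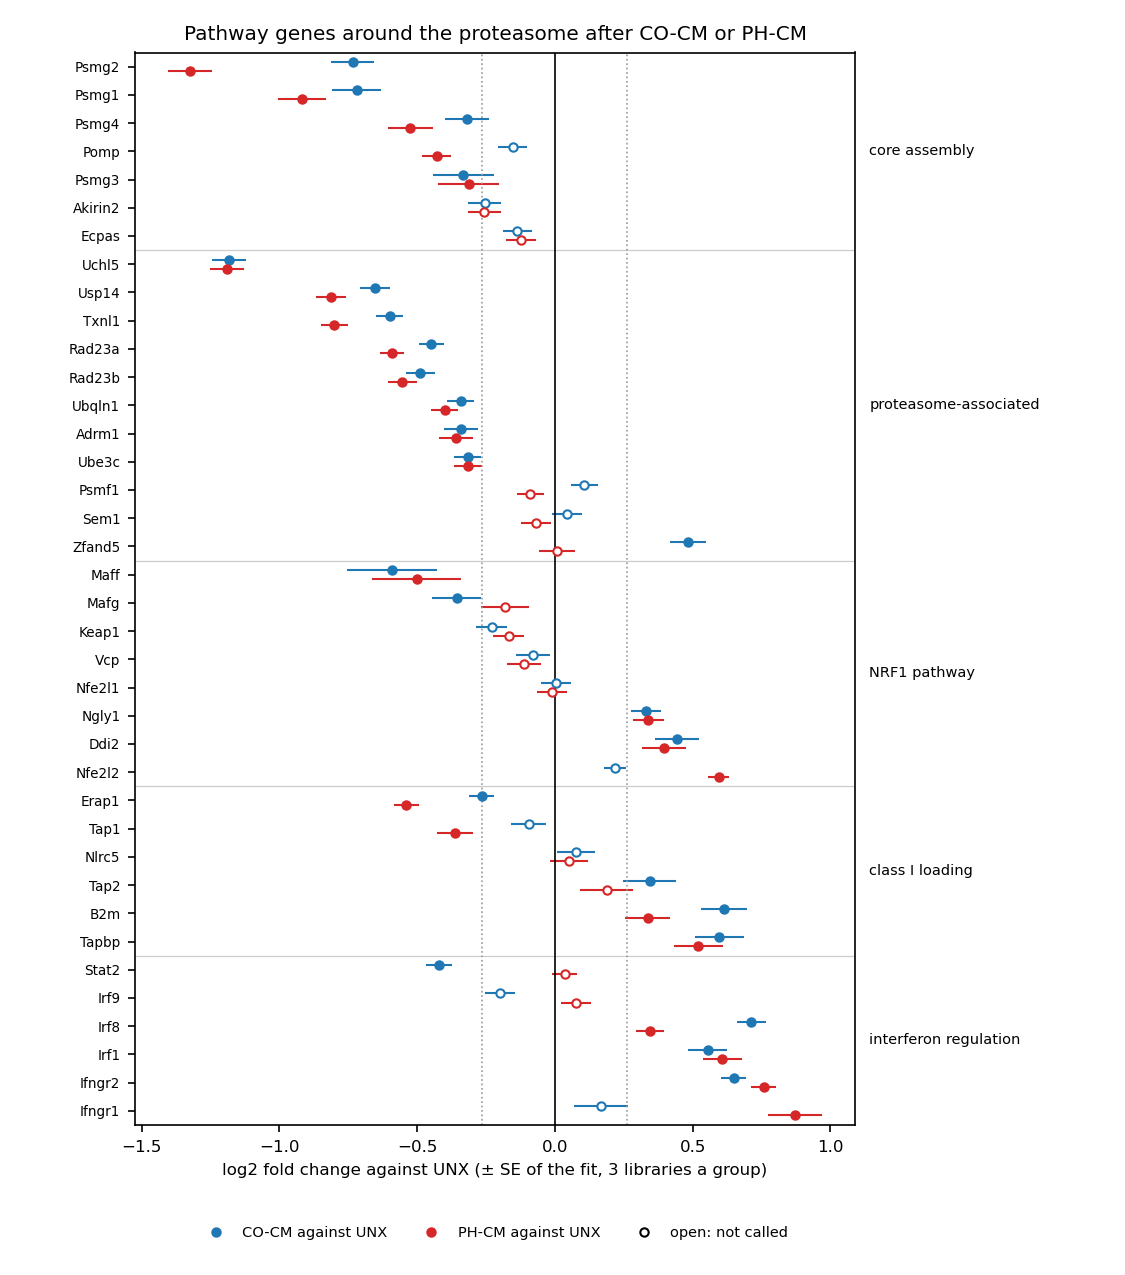
Log2 fold change against UNX (horizontal axis) of 38 genes around the proteasome on 5 lists, under CO-CM (blue) and PH-CM (red), with the standard error of the fit, 3 libraries a group. Filled points passed both thresholds and dotted lines mark a fold change of 1.2. Assembly and proteasome-bound factors lie mostly left of 0, down to -1.32 for Psmg2, while class I genes lie on both sides under each medium. Of the interferon genes named in the text, only Stat2 under CO-CM lies left of 0.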

How the data were processed

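RNA-Seq of 9 BMDM libraries was analysed, grouped and numbered by their labels, 3 each UNX, CO-CM and PH-CM. After trimming by AfterQC and alignment by STAR (GRCm38), the authors counted reads per gene with featureCounts 1.6.2 and deposited raw counts, without normalization. RPKM values deposited beside them scale the counts to exon length and library size. The exon lengths used here were derived from them, so ratios of RPKM repeat the main ratios. Their comparison tables hold the fold changes and p-values of the authors' own tests and were not used. The counting options listed set neither strand nor read pairs, so mates were counted singly and without strand, and a count stands for fewer fragments. Between 81.4% and 83.8% of counts under 20 were even.

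The 11950 genes whose CPM exceeded 1 in 3 libraries or more received TMM factors and were fitted once over all 9 libraries with the quasi-likelihood test of edgeR 4.0.16 in R 4.3.3, with limma 3.58.1 and DESeq2 1.42.0 for alternatives. The FDR is the Benjamini-Hochberg value over those genes, and calls need an FDR no higher than 0.05 with a 1.2-fold change or more. Standard errors are the fold change divided by the root of the F statistic. The fit was also run on simulated counts with known changes, after the main fit. Ratios were compared with exact permutation tests over 9 comparisons. Libraries held 62017933 to 84314201 reads, and members 751 (Psma8) to 266589 (Psmd8) reads in all. The methods describe biological replicates from a repeated experiment, without saying whether each used separate mice, so p-values measure the spread between these cultures. The chi-square per gene between libraries of a group was at least 10.61, so none was a repeat deposit.

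The labels number the replicates alike in each group. Deviations from group means correlated between libraries of the same number in every pair (r between 0.276 and 0.484), which was read as a pairing by number, and a fit with numbers as blocks is an alternative. Other alternatives were the exact test of edgeR, DESeq2, its size factors, upper-quartile factors, library size alone, no filter, filterByExpr, a fit of the 2 groups compared, no fold threshold or one of 2, and each library left out. Counts divided by 2 and the principal transcript's length, for ratios and levels, were added after seeing the data.

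The members, lists and tests were chosen with earlier results of these data known. Described library by library are the immunoproteasome and constitutive catalytic subunits, in each other class the members with the largest change of PH-CM against UNX and against CO-CM, and in each pathway list the gene with the largest change of PH-CM against UNX. Psma1, Psmd2, Tap1, Zfand5 and Nfe2l1 were added after their values were seen. Genes and overlaps come from GENCODE M21, promoter windows from RefSeq. Paaf1, on the list for assembly, was not matched by name. Of the interferon list, 1 further gene is not reported here, so no counts are given for that list.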

Additional observations from a re-analysis of the deposited data

Results flagged for a closer look

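The effects of the 2 media differed from each other for 5 members, by edgeR's quasi-likelihood test of PH-CM against CO-CM at an FDR of at most 0.05 with a fold change of at least 1.2. Lower calls made up 9.52% of the members and higher calls 2.38%, below the 15.0% and 12.2% of all genes tested. Psmd8 gave -0.65 on the log2 scale and was called in opposite directions against UNX. Psmb8 gave -0.40 and Psmb10 -0.38, each lower in 3 of 3 PH-CM libraries than in any CO-CM library. Psma8 gave -0.54 at about 1 CPM. Psma1 gave 0.27, with its low values in the CO-CM libraries. Groups of 3 libraries are too small for a test of single outlying libraries.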

How the results depend on the processing

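Under PH-CM against UNX, the count of members called lower stayed between 28 and 35 under every setting with the fold threshold of 1.2, each library left out included, and none was called higher. Under CO-CM against UNX, 22 to 29 were called lower. With a fold threshold of 2, 0 members were called in any comparison and direction, and with none 37 and 32 were called lower against UNX, and 7 lower and 2 higher in PH-CM against CO-CM. In that last comparison the lower calls numbered 2 to 6 with a library left out, and the 1 higher call was 0 with upper-quartile factors. The 1 higher call under CO-CM was 0 with library size alone and 0 to 1 with a library left out. The replicate block, which follows the pairing of the numbers, gave 30, 24 and 4 lower calls and changed no other call of a member. No paired p could fall below 0.25 for a ratio.

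The ratios could not change direction with the authors' RPKM, because the exon lengths used for them were derived from those values. The mean of the paired differences equals the difference of the group means, so it could not change direction either. With a library left out, PH-CM against CO-CM ranged from -0.19 to 0.00064 for Psmb9 over Psmb6, turning without CO-CM 2. Values near 0 that passed no test changed sign. With upper-quartile factors, CO-CM against UNX gave 0.032 for Psmb10 and 0.049 for Psmb9, and PH-CM against CO-CM -0.0031 for Psme3. PH-CM against UNX gave -0.027 with library size alone, -0.014 with no filter and -0.0081 with filterByExpr for Psma1. It gave -0.016 and -0.0037 with the first and second of these for Psmb6, and -0.052, -0.039 and -0.033 with all 3 for Psmd10. With a library left out, PH-CM against UNX ranged from -0.043 to 0.082 for Psmb6 and from -0.031 to 0.042 for Psmd10. CO-CM against UNX ranged from -0.12 to 0.063 for Psmb9, -0.094 to 0.050 for Psmb10, -0.13 to 0.021 for Psme1 and -0.16 to 0.024 for Psme2. PH-CM against CO-CM ranged from -0.065 to 0.038 for Psmb5 and from -0.0011 to 0.081 for Psme3. The cause was not tested.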
